A study of Mus musculus with 12 samples.

Results

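The TREM (triggering receptor expressed on myeloid cells) family was followed in mouse dendritic cells with and without interleukin 2 (IL-2) and with and without curdlan. The family was taken as 6 genes, Trem1, Trem2, Trem3, Treml1, Treml2 and Treml4, out of 19937 genes measured. A member was read from the array probe set that carried its symbol and no other. Where a gene had several such probe sets, the one chosen by the highest mean over the 12 arrays was used. Each of the 6 had 1 probe set, so no measured value entered the choice.

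Bone marrow cells were cultured with GM-CSF (200 ng/ml, 7 days) and selected with beads that bind CD11c, to a stated purity above 95%. Curdlan is a beta-glucan that binds Dectin-1 on myeloid cells. The 4 groups had 3 arrays each: wild-type cells left untreated, wild-type cells given curdlan for 6 h, IL-2 knockout cells left untreated, and IL-2 knockout cells given curdlan for 6 h. The strain is given as B6.129P2-Il2tm1Hor/J for wild-type and knockout arrays alike, so genotype was read from the genotype label and the title. The comparisons set knockout against wild-type cells, untreated and after curdlan, and curdlan-treated against untreated cells within each genotype. Whether replicates were different animals or cultures is not stated in the labels. The p-values here reflect only the scatter of these samples, which may be technical. Below, a culture means the untreated and the curdlan-treated array of the same genotype and replicate number. That pairing was read from correlations between arrays and not from the labels.

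TREM proteins are cell surface receptors with an immunoglobulin-like domain, made mainly by myeloid cells. Trem1, Trem2, Trem3 and Treml4 have no signalling motif of their own and pair with the adaptor DAP12 (gene Tyrobp), whose phosphorylated motif recruits the kinase Syk. Trem1 amplifies inflammatory signals in neutrophils and monocytes, and Trem2 binds lipids and apolipoproteins and can restrain cytokine production by macrophages and dendritic cells. Treml4 is known on splenic dendritic cells and macrophages, where it binds dying cells. Treml2 is found on B cells, neutrophils and macrophages, and Treml1, known from platelets, carries an inhibitory motif.

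In IL-2 knockout cells Treml4 was 2.81-fold lower untreated and 2.90-fold lower with curdlan, and Treml2 was 2.06-fold lower untreated. Trem2 was slightly higher in knockout cells in both treatments without passing the test. It fell with curdlan in both genotypes, while Treml2 rose with curdlan in knockout cells. The responses of Treml2 to curdlan were not shown to differ between genotypes. Trem1 was lower in knockout cells in both treatments, but passed only with the replicate number as a fixed block. Trem3 and Treml1 passed no test. Each call made without that block was lost under some alternative fits. The Treml4 call was lost under 10 of 28 untreated and 14 of 28 with curdlan.

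All 6 genes lie in 1 cluster on chromosome 17, between 48232713 and 48367176 in the RefSeq table for GRCm38.p6, a stretch of 134.5 kb. In that order they are Trem1 (48232713 to 48246927), Trem3 (48247677 to 48258848), Treml4 (48264200 to 48275607), Treml2 (48299390 to 48312534), Trem2 (48346401 to 48352276) and Treml1 (48359916 to 48367176). The cluster holds 1 further coding gene, B430306N03Rik (also named Treml6), between Treml2 and Trem2.

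RefSeq promoter windows, 250 bases before and 50 after the start annotated for the window, were at hand for 4 of the 6 genes. In Treml4 and Trem1 that start lies downstream of the gene start given above, and in Trem2 they coincide. They are shown for Treml4, Trem1 and Trem2, the 3 of these whose group means lay farthest apart (2.14, 0.89 and 0.50 log2 units). Each is printed 5′ to 3′ on the plus strand, in the order Treml4 (chr17:48264045-48264344), Trem1 (chr17:48232489-48232788) and Trem2 (chr17:48346151-48346450). Capitals mark matches to 5 short motifs searched on both strands.
Treml4: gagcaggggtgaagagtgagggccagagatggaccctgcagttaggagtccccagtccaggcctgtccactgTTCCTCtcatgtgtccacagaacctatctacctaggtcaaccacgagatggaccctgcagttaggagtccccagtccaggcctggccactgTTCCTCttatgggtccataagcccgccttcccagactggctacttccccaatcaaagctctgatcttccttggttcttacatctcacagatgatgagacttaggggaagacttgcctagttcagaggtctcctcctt
Trem1: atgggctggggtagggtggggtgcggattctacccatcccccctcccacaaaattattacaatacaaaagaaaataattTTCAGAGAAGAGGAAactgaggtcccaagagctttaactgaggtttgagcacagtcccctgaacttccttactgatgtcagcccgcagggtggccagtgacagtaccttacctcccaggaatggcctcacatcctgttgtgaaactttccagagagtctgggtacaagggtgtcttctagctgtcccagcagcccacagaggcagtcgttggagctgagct
Trem2: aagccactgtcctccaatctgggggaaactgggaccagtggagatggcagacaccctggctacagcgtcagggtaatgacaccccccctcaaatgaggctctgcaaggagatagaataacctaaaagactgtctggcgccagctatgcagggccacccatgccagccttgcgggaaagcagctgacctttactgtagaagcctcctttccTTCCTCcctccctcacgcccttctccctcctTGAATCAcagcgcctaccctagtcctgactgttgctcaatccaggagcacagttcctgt

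The motifs were the STAT5 element TTCNNNGAA, the ETS core GAGGAA bound by PU.1 and Spi-B, the interferon response core GAAANNGAA, the AP-1 element TGANTCA and the E-box CACGTG. The ETS core, read on the opposite strand, stood at 2 places in the Treml4 window, beginning at positions -178 and -87 relative to the start of the window annotation. The one at -87 lies past the gene start given above (48264200), so only the one at -178 is upstream of the gene as listed. Both lie in a direct repeat: a stretch of 64 bases recurs 91 bases further on, with 61 of the 64 bases identical. In the Trem1 window a STAT5 element (TTCAGAGAA) and an ETS core adjoin, beginning at -171 and -162. The Trem2 window has an ETS core on the opposite strand beginning at -40 and an AP-1 element (TGAATCA) at -9. Of 32851 RefSeq windows of the same length, 28.3% hold the ETS core, 8.30% the STAT5 element, 7.81% the AP-1 element, 8.56% the interferon response core and 7.15% the E-box. These are matches of letters and say nothing of binding in these cells.

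The arrays gave log2 values with medians between 6.59 and 6.64, and correlations between arrays ran from 0.981 to 0.997. As a guide to unexpressed genes, the 95th percentile of 1027 olfactory receptor genes was 5.94, and each member lay above it on every array. The disrupted gene Il2 averaged 5.49 in untreated and 7.25 in curdlan-treated wild-type cells, against 5.90 and 5.77 in knockout cells. Between untreated genotypes Il2 did not pass (0.41 higher in the knockout, limma adjusted p 0.524). Only its mean in curdlan-treated wild-type cells was above that olfactory receptor level. The 12 dendritic cell markers had group means above that level, from 6.78 (Flt3, untreated knockout cells) to 13.27 (H2-Ab1, untreated wild-type cells). Of 16 neutrophil markers 7 were at or under it in all groups, Ly6g, Elane and Cxcr2 among them, as were Vsig4 of 12 macrophage markers, 0 of 8 megakaryocyte markers, 1 of 9 osteoclast markers, 4 of 8 B cell, 5 of 8 T cell, 5 of 6 NK cell, 1 of 6 plasmacytoid dendritic cell, and 6 of 8 mast cell and basophil markers. In bulk RNA, fewer cells of a type and less RNA per cell cannot be told apart.

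Treml4, the dying-cell receptor, gave log2 values of 8.03, 9.12 and 9.13 in untreated wild-type cells and 9.04, 9.73 and 9.46 with curdlan. In knockout cells it gave 7.24, 7.02 and 7.56 untreated and 7.74, 7.65 and 8.23 with curdlan. The knockout arrays lay below the wild-type arrays of the same treatment, and wild-type replicate 1 was the lowest wild-type array in both treatments.

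**Figure D1:**
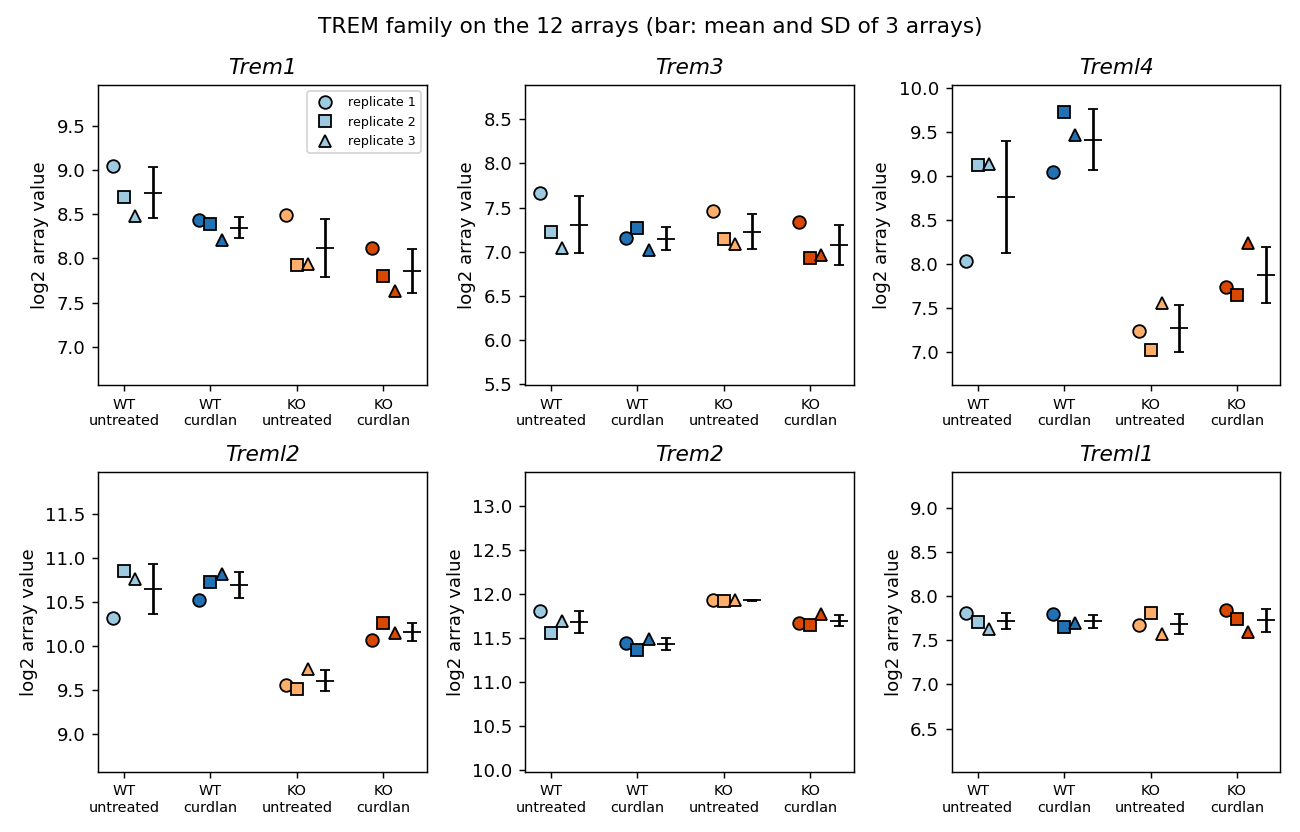
Log2 array values (y axis, the same span in each panel) of the 6 genes in the 4 groups, 1 symbol per array with its shape giving the replicate number, and the mean with SD of 3 arrays beside them. Treml4 and Treml2 are lower in knockout (KO) than in wild-type (WT) cells, and Treml1 keeps group means between 7.68 and 7.73.

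The mean of Treml4 was 8.76 ± 0.63 (SD, n = 3) in untreated wild-type and 7.27 ± 0.27 (SD, n = 3) in untreated knockout cells, a difference of -1.49 ± 0.29 (SE, adjusted p 0.0305). With curdlan the means were 9.41 ± 0.35 and 7.87 ± 0.32 (SD, n = 3), a difference of -1.54 ± 0.29 (SE, adjusted p 0.0388). The untreated difference lost its call in a fit to those 6 arrays alone (0.0954), and without untreated wild-type arrays 2 (0.153) or 3 (0.113), untreated knockout arrays 1 (0.0984) or 2 (0.118) or curdlan-treated knockout array 1 (0.0507). It was also lost on leaving out both arrays of wild-type culture 2 (0.153) or 3 (0.167), or of knockout culture 1 (0.155) or 2 (0.142). Its adjusted p ran from 0.00337 to 0.167 over the alternatives while its size stayed between -1.85 and -1.30. The difference with curdlan was lost with only the arrays compared (0.0642), without untreated wild-type array 3 (0.0505), untreated knockout arrays 1 (0.0577) or 2 (0.0553), curdlan-treated wild-type arrays 2 (0.215) or 3 (0.116), and curdlan-treated knockout arrays 1 (0.136), 2 (0.141) or 3 (0.0696). It was also lost without wild-type cultures 2 (0.202) or 3 (0.152) and without any of knockout cultures 1 (0.178), 2 (0.173) and 3 (0.0638), with sizes between -1.72 and -1.38 and adjusted p from 0.00621 to 0.215 over the alternatives.

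Under curdlan Treml4 was higher in each culture: by 1.01, 0.60 and 0.33 in wild-type cells and by 0.50, 0.63 and 0.68 in knockout cells. Neither mean change passed in the fit to all 12 arrays without a block (0.65 ± 0.29, adjusted p 0.145, and 0.60 ± 0.29, SE, adjusted p 0.145). The knockout change passed without wild-type culture 1 (0.0296). Arrays of 1 genotype with the same replicate number deviated together from their group means, so they were also fitted as pairs. With the culture as a fixed block both changes passed (SE 0.11, adjusted p 0.00289 in wild-type and 0.00451 in knockout cells). With the culture as a random block neither did (adjusted p 0.0522 and 0.0580). Over all alternatives the adjusted p ran from 0.00289 to 0.463 and from 0.00451 to 0.338. The order of the group means was wild type with curdlan, wild type untreated, knockout with curdlan and knockout untreated. The lowest untreated wild-type value (8.03) lay below the highest curdlan-treated knockout value (8.23), so those neighbours overlap.

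Trem1, the amplifier of inflammatory signals, gave 9.05, 8.70 and 8.48 in untreated and 8.44, 8.39 and 8.21 in curdlan-treated wild-type cells. In knockout cells it gave 8.49, 7.93 and 7.93 untreated and 8.12, 7.80 and 7.64 with curdlan. It was lower with curdlan in 6 of 6 cultures, and replicate 1 was the highest array of each group. Between genotypes the untreated groups overlapped by 1 array, and the curdlan-treated groups did not overlap.

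The Trem1 difference between knockout and wild-type cells was -0.63 ± 0.18 untreated (SE, adjusted p 0.145) and -0.49 ± 0.18 with curdlan (SE, adjusted p 0.295), neither of which passed. Untreated arrays with the same number deviated together across genotypes too, and with the replicate number as a block the untreated difference passed (SE 0.09, adjusted p 0.00464). With genotype and number together as a random block it did not (0.0937, range over the alternatives 0.00464 to 0.494). The change with curdlan was -0.40 ± 0.18 in wild-type cells (SE, adjusted p 0.152) and -0.26 ± 0.18 in knockout cells (SE, adjusted p 0.293). With the culture as a fixed block these passed at 0.0065 and 0.0348, and as a random block they did not (0.0579 and 0.165), in ranges of 0.0065 to 0.491 and 0.0348 to 0.779. Group means were 8.75 ± 0.29, 8.35 ± 0.12, 8.12 ± 0.32 and 7.85 ± 0.25 (SD, n = 3), in the order wild type untreated, wild type with curdlan, knockout untreated, knockout with curdlan.

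Trem2, the lipid-binding receptor, gave 11.80, 11.56 and 11.69 in untreated and 11.44, 11.36 and 11.49 in curdlan-treated wild-type cells. In knockout cells it gave 11.93, 11.92 and 11.93 untreated and 11.67, 11.65 and 11.77 with curdlan. Each knockout array lay above each wild-type array of the same treatment, and each of the 6 cultures was lower with curdlan.

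With curdlan Trem2 fell by 0.25 on the log2 scale in wild-type cells (SE 0.07, adjusted p 0.0204) and by 0.23 in knockout cells (SE 0.07, adjusted p 0.0301), that is 1.19-fold and 1.17-fold. The wild-type call was lost with only the arrays compared (0.0601), without untreated arrays 1 (0.0805) or 3 (0.0591), curdlan-treated array 2 (0.0771) or cultures 1 (0.135) or 3 (0.0713), all wild-type, in a range of 0.00597 to 0.135. The knockout call was lost without untreated arrays 1 (0.0867) or 3 (0.0782), curdlan-treated arrays 1 (0.0904) or 2 (0.107), knockout cultures 1 (0.192), 2 (0.131) or 3 (0.0555), or wild-type culture 3 (0.0535), in a range of 0.0101 to 0.192. The genotype difference was 0.25 ± 0.07 untreated (SE, adjusted p 0.118) and 0.27 ± 0.07 with curdlan (SE, adjusted p 0.112). It did not pass, with 95% intervals of 0.10 to 0.39 and 0.12 to 0.41. The untreated difference passed without untreated wild-type array 1 (0.0430) or wild-type culture 1 (0.0440), in a range of 0.0430 to 0.563.

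Trem3, a DAP12-pairing receptor of mouse that is a pseudogene in human, gave 7.66, 7.22 and 7.04 in untreated and 7.15, 7.27 and 7.01 in curdlan-treated wild-type cells. In knockout cells it gave 7.46, 7.14 and 7.08 untreated and 7.33, 6.93 and 6.96 with curdlan. All 4 groups overlapped. The differences ran from -0.16 (curdlan in wild-type cells, 95% interval -0.52 to 0.19, adjusted p 0.53) to -0.07 (genotype with curdlan, 95% interval -0.43 to 0.28, adjusted p 0.926). The intervals leave room for a change of about the size seen in Trem2.

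Treml2 gave 10.32, 10.85 and 10.76 in untreated wild-type cells and 10.53, 10.73 and 10.82 with curdlan. Knockout cells gave 9.56, 9.52 and 9.74 untreated and 10.07, 10.27 and 10.15 with curdlan. The untreated knockout arrays were the lowest 3 of the 12, the curdlan-treated knockout arrays lay above them, and all 6 wild-type arrays lay above both.

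In untreated cells Treml2 was lower in the knockout (log2 difference -1.04 ± 0.13, SE, adjusted p 0.00588). The group means were 10.64 ± 0.28 and 9.61 ± 0.12 (SD, n = 3). That call was lost without knockout culture 2 (0.0516), in a range of 0.00068 to 0.0516. With curdlan the difference was -0.53 ± 0.13 (SE, adjusted p 0.0988, 95% interval -0.81 to -0.25) and did not pass. It passed without untreated wild-type array 1 (0.0281) or wild-type culture 1 (0.013) and with the replicate block (0.0207), whose pairing the curdlan-treated arrays did not bear out, in a range of 0.013 to 0.383. Curdlan raised Treml2 in knockout cells by 0.56 ± 0.13 (SE, adjusted p 0.0113, 1.47-fold), by 0.51, 0.75 and 0.41 in the 3 cultures. This was lost without curdlan-treated knockout array 2 (0.0528) or knockout cultures 1 (0.0784) or 2 (0.0906), in a range of 0.00149 to 0.0906. In wild-type cells the changes were 0.20, -0.12 and 0.06 (mean 0.05 ± 0.13, SE, adjusted p 0.83). The difference between the 2 curdlan effects was 0.51 ± 0.18 (SE, adjusted p 1.00, 95% interval 0.11 to 0.90), so the responses of the genotypes were not shown to differ.

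Treml1, the platelet receptor, gave 7.81, 7.70 and 7.63 in untreated and 7.79, 7.66 and 7.69 in curdlan-treated wild-type cells. It gave 7.67, 7.81 and 7.57 in untreated and 7.84, 7.74 and 7.59 in curdlan-treated knockout cells. The groups overlapped throughout and the means spanned 0.04. Each of the 4 differences had a 95% interval within -0.21 to 0.22, so a change as large as that of Treml4 lies outside them.

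**Figure D2:**
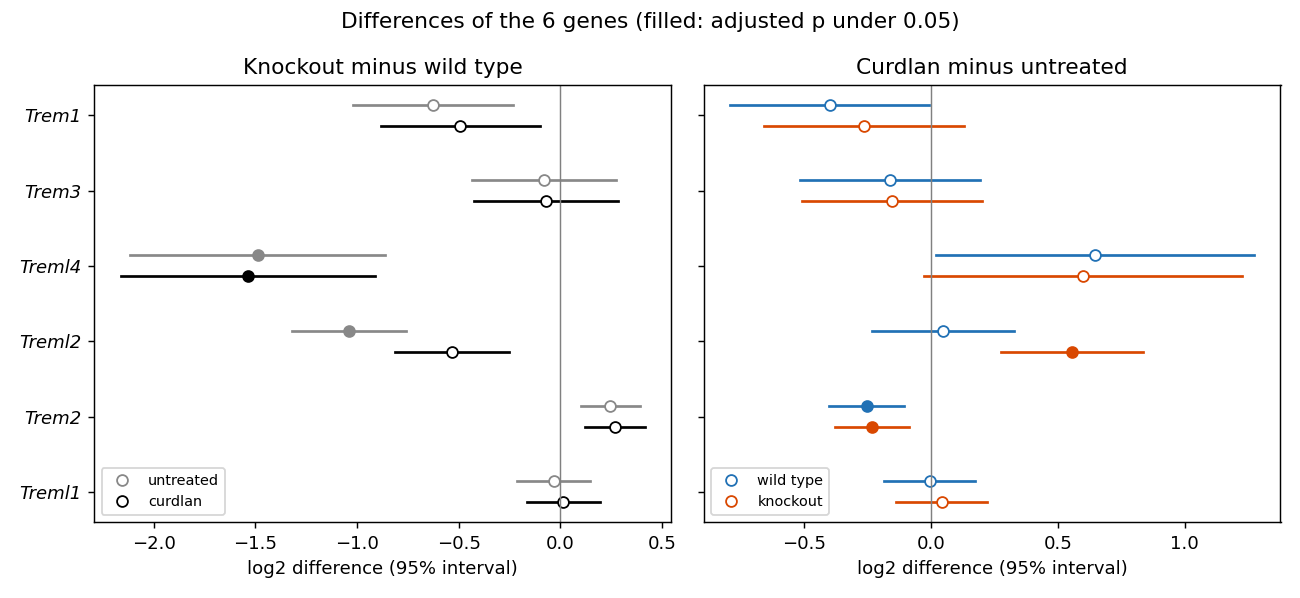
Log2 differences (x axis) of the 6 genes with 95% intervals from the fit to all 12 arrays: knockout minus wild type on the left (grey untreated, black with curdlan) and curdlan minus untreated on the right (blue wild type, orange knockout). Filled circles have an adjusted p under 0.05: Treml4 in both genotype comparisons, Treml2 in the untreated one and in the knockout curdlan effect, and Trem2 in both curdlan effects.

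By comparison, 2 of the 6 members were lower in untreated knockout cells (Treml4 and Treml2) and 0 were higher, where 1.19% of all genes were lower and 0.231% higher. With the replicate block 3 were lower and 0 higher, where 2.78% of all genes were lower and 0.727% higher. With curdlan 1 of 6 was lower in the knockout and 0 were higher, against 0.517% and 0.105% of all genes. In wild-type cells given curdlan 1 of 6 fell and 0 rose, against 12.3% and 7.27% of all genes. In knockout cells 1 fell and 1 rose, against 13.2% and 9.29%. With the culture as a fixed block 2 fell and 1 rose in wild-type cells (16.4% and 9.95% of all genes), and 2 fell and 2 rose in knockout cells (17.9% and 14.4%). With the culture as a random block the members called stayed at 1 in wild-type and 2 in knockout cells. That block called 5298 of all 19937 genes in wild-type cells. In knockout cells no alternative, this block included, called more than 6699 of all genes, and the count of this block itself is not given here. The interaction was called by limma in 0 of 6 members and in 0% of all genes, with 552 genes at an unadjusted p under 0.05.

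The median difference of the 6 members, all of which were tested, was -0.35 in untreated and -0.28 in curdlan-treated cells between genotypes, against medians of 0.01 and 0.02 over all genes. The comparisons share samples: each untreated wild-type array enters both its genotype and its curdlan comparison.

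Markers of other cell types were read beside the genotype differences. The mean log2 level of 12 dendritic cell markers was 11.19 to 11.33 on untreated and 11.31 to 11.32 on curdlan-treated wild-type arrays, and 10.81 to 10.97 and 10.96 to 11.17 on knockout arrays. Of these markers only Cd209a passed between genotypes, by -2.45 untreated (adjusted p 0.00588) and -1.42 with curdlan (adjusted p 0.0396). Without Cd209a, left out after its values were seen, the ranges were 11.21 to 11.33 and 11.58 to 11.61 in wild-type and 10.94 to 11.21 and 11.37 to 11.55 in knockout cells, without overlap within a treatment, though the untreated groups met at 11.21. The part of these markers in the Treml4, Treml2 and Trem1 differences was not tested. Macrophage markers (10.54 to 10.67 on untreated wild-type and 10.58 to 10.79 on untreated knockout arrays), neutrophil markers (6.29 to 6.41 and 6.19 to 6.34) and megakaryocyte markers (8.02 to 8.22 and 8.20 to 8.34) passed in 0 members between genotypes, as did the B cell, T cell, NK cell, osteoclast, plasmacytoid dendritic cell and mast cell lists, in both treatments. Of the 81 markers of these 9 lists, 14 had an unadjusted limma p under 0.05 between untreated genotypes and 8 with curdlan. Of the 12 dendritic cell markers 5 and 4 did, and 4 and 3 of the 11 without Cd209a. Of all 19937 genes 2114 did untreated and 2306 with curdlan. With the replicate block 7 of the 81 passed untreated (Pf4 and Ctsk higher, and Cd28, Pacsin1, Kit, Gata2 and Cpa3 lower in the knockout), as did Cd86 beside Cd209a. That block called 3.51% of all genes. The group means of Cpa3, 4.24 to 4.70, were all under the olfactory receptor level.

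Along the cluster, Trem1 at one end was -0.63 untreated and -0.49 with curdlan. Both passed only with the fixed replicate block (adjusted p 0.00464 and 0.0202), whose pairing the curdlan-treated arrays did not bear out. Treml4 and Treml2 are next to each other and were both lower in untreated knockout cells. Their immediate neighbours Trem3 (-0.08) and B430306N03Rik (-0.06, adjusted p 0.895) did not pass, nor did Trem2 (0.25) and Treml1 (-0.03). Of the 20 nearest coding genes outside the cluster, 10 on either side, 0 passed between genotypes in limma in either treatment. At an unadjusted p under 0.05 there were 2 and 1 of them, against 2114 and 2306 of all 19937 genes. The largest untreated difference was that of 9830107B12Rik (0.29, adjusted p 0.523). Curdlan raised 4 of the 20 in each genotype and lowered 0, where 7.27% and 9.29% of all genes rose and 12.3% and 13.2% fell. With the fixed block 5 rose and 1 fell in each, where 9.95% and 14.4% of all genes rose and 16.4% and 17.9% fell. The genes raised without the block included Foxp4 (0.83 in both), A530064D06Rik (also named Trem4, 0.71 and 0.67) and Mocs1 (0.35 in both) in each genotype. The median of the 20 was 0.11 and 0.16, against 0.02 and 0.04 over all genes.

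**Figure D3:**
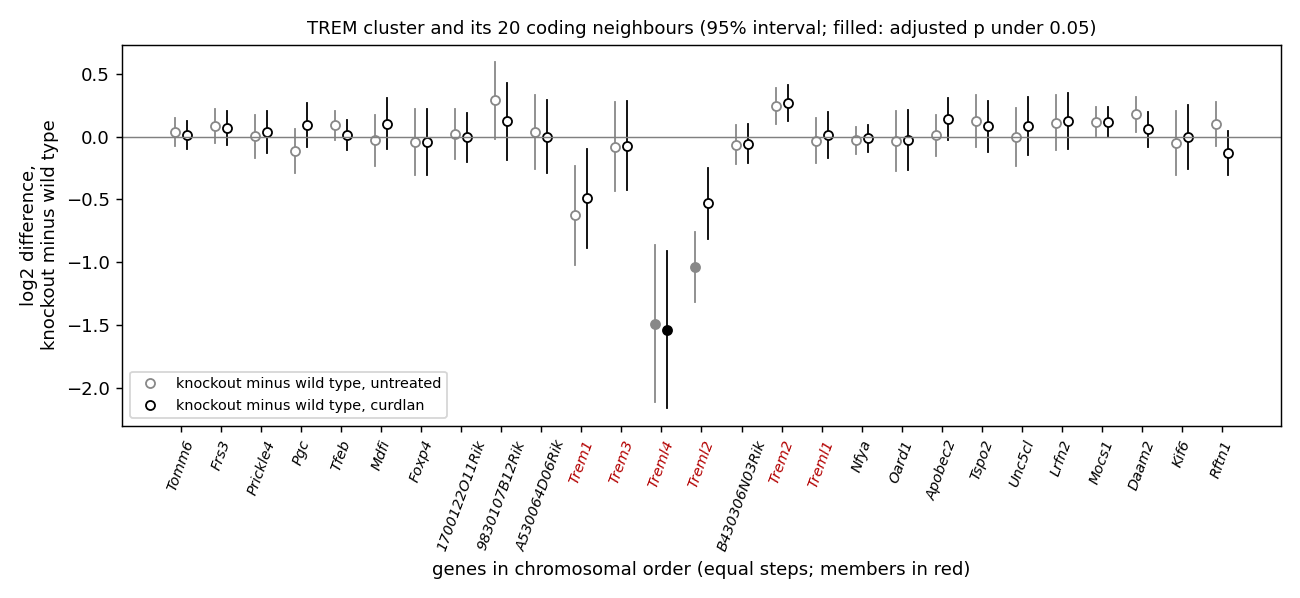
Knockout minus wild-type log2 differences (y axis) with 95% intervals for the TREM cluster and its 20 coding neighbours, in chromosomal order with equal steps (x axis; members in red), grey for untreated and black for curdlan-treated cells. Filled circles have an adjusted p under 0.05 and occur at Treml4 (-1.49 and -1.54) and, untreated, Treml2 (-1.04).

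Genes with the profile most like a member were sought for the 2 members whose group means spanned at least 1 log2 unit. Likeness was the root mean square difference over the 12 arrays after each gene was centred on its own mean. Closest to Treml4, whose own root mean square about its mean was 0.89, were Spib (0.36), which encodes the ETS factor Spi-B, Tagap (0.36), a GTPase-activating protein gene, and Dpp4 (0.39), which encodes the peptidase CD26. Untreated Spib averaged 8.06 in wild-type and 6.55 in knockout cells, and Dpp4 averaged 9.96 and 8.51. Replicate 1 was the lowest untreated wild-type array in Treml4 and in all 3 of these genes. Closest to Treml2 (0.46 about its own mean) were Tspoap1 (0.18), Dpy19l3 (0.21) and the magnesium transporter gene Slc41a1 (0.21). Tspoap1 averaged 7.43 and 6.74 untreated and 7.84 and 7.30 with curdlan in wild-type and knockout cells. These genes were picked for likeness on the same arrays and carry no test here.

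**Figure D4:**
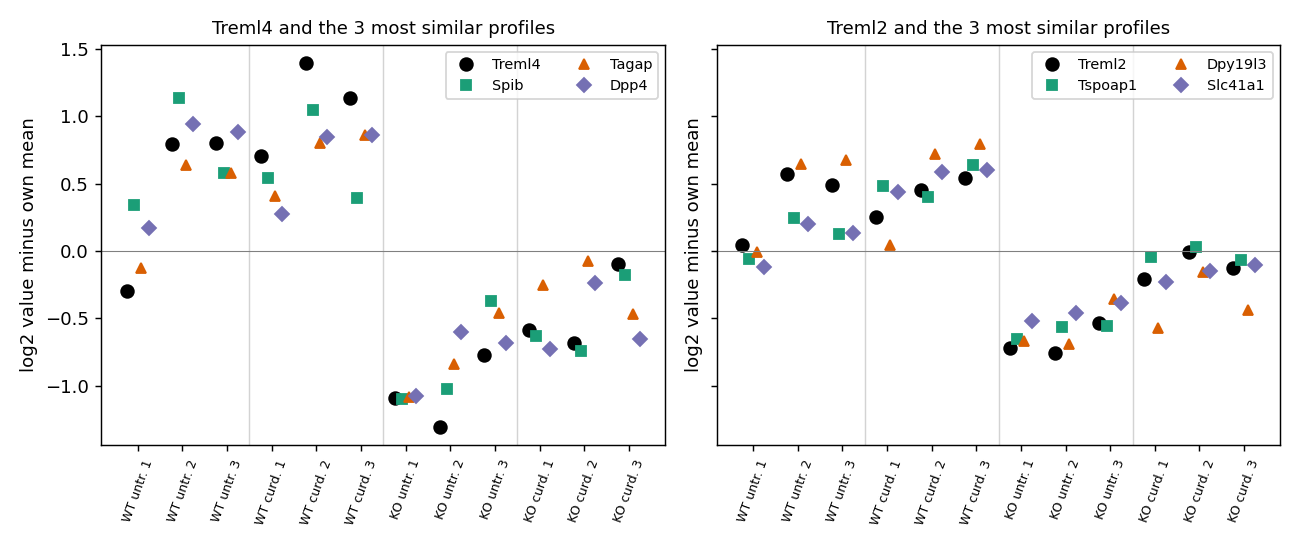
Log2 values minus each gene's own mean (y axis) on the 12 arrays (x axis, 4 groups of 3) for Treml4 (left) and Treml2 (right), black, with the 3 genes of most similar profile in colour. All knockout values of Treml4, Spib, Tagap and Dpp4 lie below 0, and wild-type replicate 1 is the lowest untreated wild-type array in each of them.

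Downstream of the receptors, Tyrobp, which encodes DAP12, fell by 0.22 in knockout cells (adjusted p 0.0228) and was 0.17 lower in wild-type cells without passing (adjusted p 0.0705). Syk rose by 0.22 (adjusted p 0.0198) and 0.26 (adjusted p 0.00827) in wild-type and knockout cells. Hcst, the gene of the related adaptor DAP10, passed in neither (0.01 and 0.12). Of 27 measured genes of DAP12 and Syk signalling, 5 rose and 5 fell in wild-type cells, and 7 rose and 7 fell in knockout cells, with medians of 0.01 and 0.05. Of all genes 7.27% rose and 12.3% fell in wild-type cells and 9.29% and 13.2% in knockout cells. With the fixed block 7 of the 27 rose and 6 fell in wild-type cells (9.95% and 16.4% of all genes). In knockout cells 11 rose and 7 fell with it (14.4% and 17.9% of all genes). The kinase gene Src (0.72 and 0.89) was higher and the adaptor gene Card9 (-0.71 and -0.63) lower with curdlan in both. Between genotypes 0 of 27 passed untreated, where 0.231% of all genes were higher and 1.19% lower in the knockout. With the replicate block the adaptor gene Lat was higher (0.50, adjusted p 0.00419) and the kinase gene Fyn lower (-0.54, adjusted p 0.0295). Of all genes 0.727% were then higher and 2.78% lower. With curdlan Lat was higher (0.62, adjusted p 0.0426) and the PI3-kinase subunit gene Pik3r1 lower (-0.46, adjusted p 0.00579) in the knockout. The shares of all genes there were 0.105% higher and 0.517% lower.

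Among 12 genes of TREM ligands and co-receptors, 1 rose and 1 fell with curdlan in each genotype, where 7.27% to 9.29% of all genes rose and 12.3% to 13.2% fell. With the fixed block 1 rose and 2 fell in wild-type cells (9.95% and 16.4% of all genes), and 3 rose and 1 fell in knockout cells (14.4% and 17.9%). Clu, the gene of an apolipoprotein bound by Trem2, rose by 0.87 in wild-type and 0.93 in knockout cells given curdlan. Hmgb1, a nuclear protein gene linked to Trem1, fell by 0.66 in both. Apoe, another apolipoprotein gene, averaged 9.17 in wild-type and 10.24 in knockout untreated cells and did not pass (1.07, adjusted p 0.709). Its arrays followed the replicate number in both genotypes (number 1 lowest and number 3 highest, 10.10 in wild-type and 11.57 in knockout cells). With the number as a block the untreated difference passed (SE 0.23, adjusted p 0.0341), as did that of Pglyrp1, a Trem1 ligand gene (-0.40, adjusted p 0.0233). Of all genes 0.727% were higher and 2.78% lower with that block. No gene of the 12 passed between genotypes without the block. In each treatment 1 of the 12 had an unadjusted limma p under 0.05, against 2114 (untreated) and 2306 (curdlan) of all 19937 genes.

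Of 11 measured genes for shedding and cleavage of TREM proteins, 4 rose and 1 fell with curdlan in wild-type cells, and 3 rose and 1 fell in knockout cells. The shares of all genes were 7.27% higher and 12.3% lower, and 9.29% and 13.2%. With the fixed block 4 of the 11 rose and 2 fell in each genotype. Of all genes 9.95% then rose and 16.4% fell in wild-type cells, and 14.4% and 17.9% in knockout cells. Rhbdf2, which helps the sheddase ADAM17 mature, rose by 0.41 and 0.48, and Aph1b, of the gamma-secretase complex, fell by 0.48 and 0.30. Adam17 rose by 0.19 in knockout cells (adjusted p 0.0242), and the protease inhibitor gene Timp3 was called higher in wild-type cells, from 5.47, under the olfactory receptor level, to 6.04. Of 13 other receptors that pair with DAP12, 2 fell in wild-type cells (Klrd1 and Cd300c2) and 1 rose in knockout cells, Klrk1, the gene of NKG2D (0.98, adjusted p 0.0122), against the same shares of all genes. With the fixed block 4 fell in wild-type and 6 in knockout cells, and 1 rose in each, against the same fixed-block shares of all genes. Klrd1 was also called lower in untreated knockout cells, but its group means, 4.41 to 5.08, were all under the olfactory receptor level. With the replicate block Cd200r3 (-0.67, adjusted p 0.0398) and Cd200r4 (0.36, adjusted p 0.0351) were called too. Of all genes 1.19% were lower without that block, and 0.727% were higher and 2.78% lower with it. The list medians were -0.15 and -0.16 with curdlan and -0.01 and 0.004 between genotypes.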

How the data were processed

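RNA (100 ng a sample) was hybridised to 12 arrays of the type Affymetrix Mouse Gene 1.0 ST. The deposited values are log2 RMA values, per the submitters' processing notes, with no version named there. Array number, not read depth, limits the precision.

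Of 34760 probe sets, 21640 carry 1 gene symbol, 1321 several, and 11799 are unlisted in the platform annotation. The probe set with the highest mean stood for each of 954 genes with several, which left 19937 genes. limma 3.58.1 in R 4.3.3 fitted 4 group means to all 12 arrays (lmFit, eBayes), and p-values were adjusted by Benjamini-Hochberg over all genes at a threshold of 0.05. The method was tested on simulated data. No pair of arrays held identical values.

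Named genes were the 6 members, up to 4 genes per list and comparison with the largest change among those that passed (the largest one where none passed), the 3 most similar profiles, and Il2. Further genes (Tyrobp, Hcst, Syk, Trem neighbours by synonym, genes called only with the block and single markers) were chosen after their values were seen. The members and lists were chosen with earlier results of these data known.

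Arrays with the same replicate number deviated together from their group means over genes. The correlations were 0.45, 0.37 and 0.40 for curdlan in wild-type cells, 0.49, 0.53 and 0.60 in knockout cells, and 0.22, 0.11 and 0.25 between untreated genotypes, so these comparisons were also fitted with the replicate number as a block. For the curdlan-treated genotypes the correlations were 0.17, -0.13 and 0.33, and the numbers were not taken to pair the arrays. The block for the genotype comparisons nevertheless took in all 12 arrays, the curdlan-treated ones included, and did not model the culture. A culture means the untreated and the curdlan-treated array of 1 genotype and number. Alternatives changed the normalization between arrays, the filter on dim genes, the handling of several probe sets, the variance prior, the block, and the arrays in the fit.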

Additional observations from a re-analysis of the deposited data

How the results depend on the processing

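Among 30 differences of the 6 genes, 6 passed the test. Of 168 values of those 6 under the alternatives, 0 changed direction and 42 no longer passed. Precision rests on 3 arrays a group.

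When only the 2 groups compared were fitted (not possible for the interaction), 70 genes passed between untreated and 15 between curdlan-treated genotypes. Members passing were then 0 for curdlan in wild-type cells, 1 between untreated and 0 between curdlan-treated genotypes. With the replicate block, 699 genes passed between untreated and 450 between curdlan-treated genotypes, and members passing were 3 and 4 for curdlan in wild-type and knockout cells, and 3 between curdlan-treated genotypes. The pairing of the curdlan-treated genotypes was not borne out by the correlations of same-numbered arrays.

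Directions turned only among differences that did not pass. For Treml1, quantile normalization gave 0.10 and median centring 0.0042 for curdlan in wild-type cells, and 0.0279 and 0.0245 between untreated genotypes. The interaction turned under median centring for Treml1 (-0.0006), Trem2 (-0.0233) and Trem3 (-0.0381), and under quantile normalization for Trem3 (-0.0304). The cause was not tested.

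Leaving out 1 array or culture gave 1841 to 4011 genes for curdlan in wild-type cells, 1079 to 5284 in knockout cells, 9 to 608 between untreated genotypes, 18 to 299 between curdlan-treated genotypes and 0 to 3 for the interaction. Members passing ran from 0 to 1, 0 to 3, 0 to 3 and 0 to 2 for the first 4 of these. Curdlan in wild-type cells ran from -0.30 to 0.0163 for Trem3, -0.0466 to 0.0447 for Treml1 and -0.11 to 0.15 for Treml2, and in knockout cells from -0.0225 to 0.11 for Treml1. Genotype differences ran from -0.21 to 0.10 untreated and -0.20 to 0.0019 with curdlan for Trem3, and from -0.0928 to 0.0233 and -0.0459 to 0.0811 for Treml1. The interaction ran from -0.0191 to 0.32 for Trem1, -0.0367 to 0.0861 for Trem2, -0.17 to 0.14 for Trem3, -0.0186 to 0.11 for Treml1 and -0.23 to 0.32 for Treml4.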

Other observations

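Of 16 other measured myeloid receptors with immunoglobulin-like domains, 2 rose and 3 fell in each genotype with curdlan, with Siglec1 (sialoadhesin) rising by 1.27 in wild-type and 1.12 in knockout cells and Cd300a, an inhibitory receptor gene, falling by 0.50 and 0.39. Of all genes 7.27% rose and 12.3% fell in wild-type cells and 9.29% and 13.2% in knockout cells, shares near those of the list. With the fixed culture block 2 of the 16 rose and 5 fell in each genotype. Of all genes 9.95% and 14.4% then rose and 16.4% and 17.9% fell. In untreated cells Siglec1 was the 1 of 16 that passed between genotypes (0.40 higher in the knockout, limma adjusted p 0.0460). Of all genes 0.231% were higher and 1.19% lower in untreated knockout cells. With the replicate block Siglecf was lower too (-0.55, adjusted p 0.0103), where 0.727% of all genes were higher and 2.78% lower.

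Of 19 measured lipid and lysosome genes linked to Trem2 in other myeloid cells, 3 rose and 0 fell with curdlan in each genotype, against the same shares of all genes. With the fixed culture block 4 rose in wild-type and 5 in knockout cells, and 1 fell in each, against the fixed-block shares of all genes given above. The 3 were Cst7, a cystatin gene (1.13 and 1.31), Npc2, a lysosomal cholesterol carrier gene (0.38 and 0.25), and Axl, a receptor kinase gene (0.23 and 0.21). Npc2 was also the 1 of 19 higher in untreated knockout cells (0.34, adjusted p 0.0313), where 0.231% of all genes were higher. Apoe, on this list too, varied among untreated knockout arrays from 8.99 to 11.57.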
